A study of Homo sapiens with 6 samples.

Results

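The transcription factors that build and hold the hepatocyte programme were followed in cells with a knockdown of SOX9. The 8 genes were HNF4A, FOXA1, FOXA2, FOXA3, CEBPA, NR5A2, ONECUT1 and PROX1, and a probe set was a member when the table's gene symbol was one of these names. All 8 genes were measured, by 18 of the 49293 non-control probe sets, and no probe set was shared between a member and another gene. The knockdown group was made of 3 arrays of cells labelled HepG2, an established human liver cancer line, infected with a virus carrying a short hairpin against SOX9. It was set against 3 arrays of such cells infected with an empty virus, and both were kept in DMEM with serum. Per the labels' protocols a knockdown clone and a control clone were made, so a difference between clones and an effect of the hairpin cannot be told apart. Separate cultures behind the arrays are not named in the labels, so p-values cover only the spread between these arrays, which may be technical. The number of arrays, 3 in each group, limits the precision.

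These factors form a network in which each binds the control regions of others and of liver genes. FOXA proteins are pioneer factors that open chromatin in the gut endoderm from which the liver buds. HNF4A, a nuclear receptor, is needed for the epithelial and metabolic character of hepatocytes, and C/EBP alpha, the product of CEBPA, drives metabolic genes and restrains division. SOX9 marks biliary and progenitor cells of the liver, and NR5A2, ONECUT1 and PROX1 act in bile acid metabolism, in the choice between hepatocyte and bile duct fate, and in the outgrowth of the early liver bud.

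SOX9 itself was read first, because the description field of the knockdown samples names the empty virus. Its brightest probe set, 11758216_s_at, read 6.91, 7.08 and 6.90 on the knockdown arrays and 8.15, 7.99 and 7.67 on the control arrays, in log2 signal. On it all knockdown arrays were below all control arrays, as the titles and genotype labels say, and the log2 difference was -0.97 (SE 0.13, limma adjusted p = 0.00294 over all probe sets). Of the other SOX9 probe sets, 11720447_s_at differed by -0.83 without overlap (limma adjusted p = 0.00470). On 11720448_at the groups overlapped, since control 3 read 4.67 against 4.76 in knockdown 3, and the difference of -0.81 did not pass (limma adjusted p = 0.0716). Median signals of the arrays lay between 5.42 and 5.48, and Pearson correlations over probe sets were 0.9919 to 0.9959 within groups and 0.9823 to 0.9919 between them. Control 3 stood nearest to the knockdown arrays, at 0.9914 to 0.9919.

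FOXA1 and HNF4A were the members with a probe set that rose, so their promoters are shown. They are the 250 bases before each start site in RefSeq, build GRCh38.p14, written 5′ to 3′ on the strand of the gene. Capitals mark matches on either strand to ACAAAG or ACAATG (SOX), TGTTTAC or TGTTTGC (FOX), CAAAGTCCA (HNF4), ATCAAT (ONECUT) and TTGCNNAA (C/EBP). FOXA1 lies on the minus strand at chr14:37595250-37595499, and HNF4A has an upstream start with a window at chr20:44355449-44355698 and a downstream start with a window at chr20:44400989-44401238, both on the plus strand.
FOXA1: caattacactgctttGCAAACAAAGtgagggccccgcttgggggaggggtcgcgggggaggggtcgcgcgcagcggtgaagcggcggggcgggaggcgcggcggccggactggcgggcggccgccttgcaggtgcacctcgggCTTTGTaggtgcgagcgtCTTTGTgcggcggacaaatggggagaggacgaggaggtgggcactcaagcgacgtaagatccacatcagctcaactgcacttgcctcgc
HNF4A upstream start: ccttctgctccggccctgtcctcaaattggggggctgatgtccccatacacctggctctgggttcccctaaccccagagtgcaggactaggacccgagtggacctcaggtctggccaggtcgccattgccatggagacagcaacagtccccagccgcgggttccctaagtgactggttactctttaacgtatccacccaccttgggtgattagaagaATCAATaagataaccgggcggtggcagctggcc
HNF4A downstream start: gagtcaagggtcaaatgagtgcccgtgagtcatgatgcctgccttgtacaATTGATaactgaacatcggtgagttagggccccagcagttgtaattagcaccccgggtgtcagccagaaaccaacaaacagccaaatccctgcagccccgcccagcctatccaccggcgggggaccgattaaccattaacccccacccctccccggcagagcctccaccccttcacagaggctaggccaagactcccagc
The FOXA1 window held ACAAAG or its reverse complement at 3 places, 231, 107 and 89 bases before the start. The match 231 bases before the start overlapped a match to TGTTTGC on the opposite strand, 235 bases before the start. Of the 34788 distinct promoter windows of this length, 13.8% held ACAAAG at least once and 0.13% held it at 3 or more places, while 3.2% held TGTTTGC. The count of 3 is that of the FOXA1 window. All the listed motifs were searched in 8 member windows, so the share of 0.13% is not a test. The upstream HNF4A window held 1 match, to ATCAAT, and so did the downstream window. Among all windows 5.6% held ATCAAT. The other motifs were found in 9.3% (ACAATG), 3.0% (TGTTTAC), 0.3% (CAAAGTCCA) and 9.0% (TTGCNNAA) of windows and in none of these 3. A match is a run of letters and not a measured binding site, and no binding was measured here. RefSeq entries were found for 6 of the 8 genes, not for FOXA2 and PROX1.

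Levels were low for most members. Of the 18 probe sets, 3 had a mean log2 signal of at least 5 over the 6 arrays, 1 each for CEBPA (6.14), FOXA1 (5.86) and HNF4A (5.82). Over all probe sets 56.4% had a mean of at least 5. The other 15 member probe sets had means of 2.52 to 4.82, among them every probe set of FOXA2, FOXA3, NR5A2, ONECUT1 and PROX1. The values come from RMA, which compresses low signals, so a true difference of a dim probe set can be understated. Signals of different probe sets are not on a common scale, so no order of abundance between the genes was drawn from them.

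**Figure D1:**
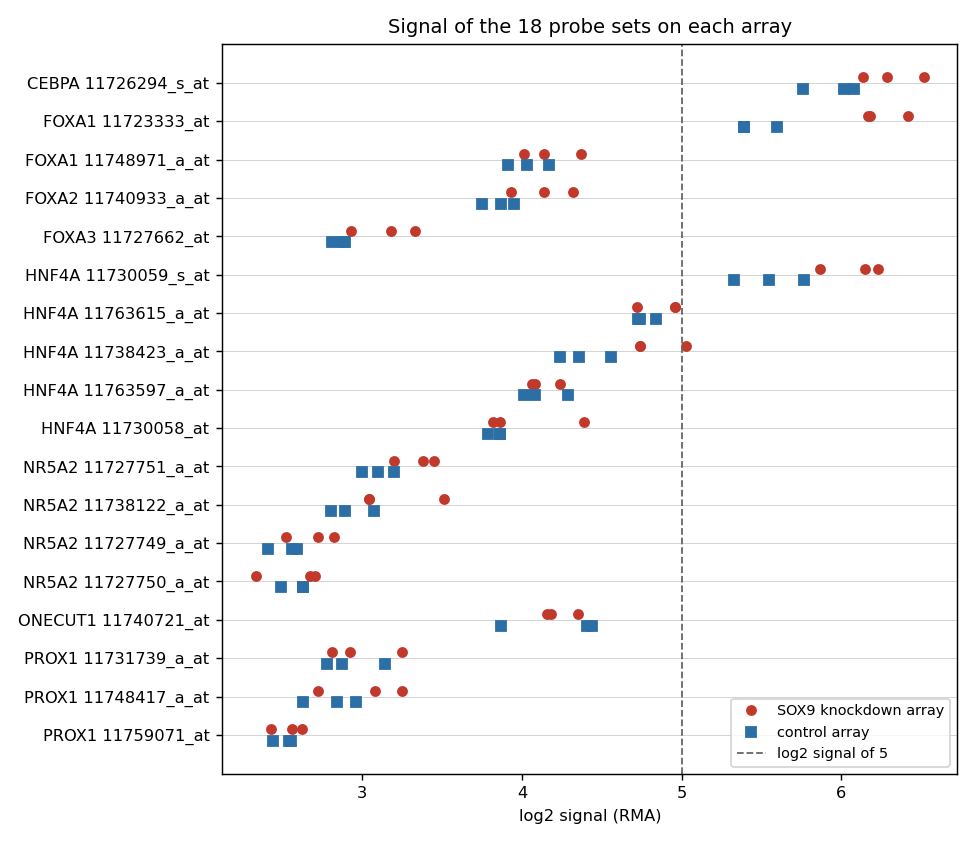
Log2 signal of each of the 18 member probe sets (rows) on the 3 SOX9 knockdown arrays (circles) and the 3 control arrays (squares), with a dashed line at a log2 signal of 5. CEBPA 11726294_s_at, FOXA1 11723333_at and HNF4A 11730059_s_at lie right of the line on every array, and most other values lie left of it.

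Across the 18 probe sets, 3 rose in knockdown and 0 fell at a limma adjusted p under 0.05. These were FOXA1 11723333_at and 2 probe sets of HNF4A. Over all probe sets 12.6% were called in either direction, 5.94% higher and 6.68% lower, and the 3 called members are 16.7% of theirs. Among the 3 members with a mean of at least 5, 2 were called higher, against 9.55% of all probe sets at that level. All knockdown arrays lay above all control arrays for 5 member probe sets, against 14.8% of all probe sets, and for 0 member probe sets below them (29.6% of all probe sets did not overlap in either direction). At an unadjusted p under 0.05 there were 5 member probe sets, against 26.2% of all. The log2 difference was above 0 for 16 of the 18, against 52.3% of all probe sets, with a median of 0.19 against 0.01. Among probe sets with a mean under 5 it was above 0 for 13 of 15 members and for 54.2% of all. Without control 2 it was above 0 for 13 of 18, and without control 3 for 18 of 18. Several of the 18 measure the same gene, so they are not independent counts.

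**Figure D2:**
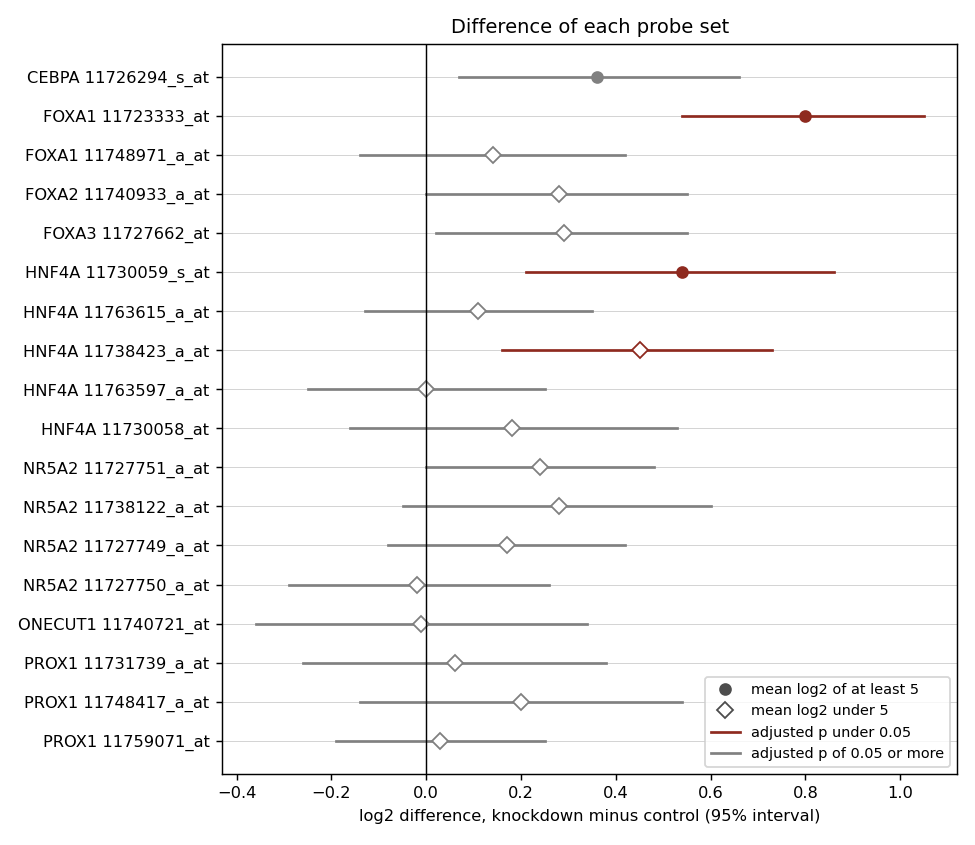
Log2 difference, knockdown minus control, of each member probe set with its 95% interval from limma; filled circles have a mean log2 of at least 5, open diamonds a lower one, and dark red marks an adjusted p under 0.05. The 3 dark red rows are FOXA1 11723333_at (0.80) and HNF4A 11730059_s_at (0.54) and 11738423_a_at (0.45).

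Among the pioneer factors, FOXA1 gave the clearest difference. Probe set 11723333_at read 6.17, 6.18 and 6.42 on the knockdown arrays and 5.39, 5.39 and 5.60 on the control arrays. Every knockdown array was above every control array, and the gap between the groups was wider than the spread within either. The group values were 6.26 ± 0.14 in knockdown and 5.46 ± 0.12 in control (SD, n = 3), a 1.74-fold rise with a log2 difference of 0.80 (SE 0.11, 95% interval 0.54 to 1.05, limma adjusted p = 0.00326). The call held when any 1 array was left out, with differences of 0.72 to 0.87 and adjusted p of 0.00253 to 0.0195.

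The second FOXA1 probe set did not follow. Probe set 11748971_a_at read 4.01, 4.37 and 4.14 in knockdown and 4.17, 3.91 and 4.03 in control, with overlapping groups and a difference of 0.14 (95% interval -0.14 to 0.42, limma adjusted p = 0.561). The table aligns both to chromosome 14, band q21.1, minus strand, with no genome build named in the labels or the table. The target transcript of 11723333_at covers 38058756 to 38064489, and that of 11748971_a_at covers 38060253 to 38069245, so it begins further upstream and ends short of the 3′ end of the other. At a mean of 4.11 the second probe set was dim, and whether its transcript form or its signal sets the lack of a difference was not tested.

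FOXA2 and FOXA3, the close relatives of FOXA1, were each measured by 1 dim probe set. FOXA2 11740933_a_at, which aligns to chromosome 20, band p11.21, read 3.93, 4.32 and 4.14 in knockdown and 3.75, 3.87 and 3.95 in control. The groups overlapped narrowly, at knockdown 1 and control 3, and the difference of 0.28 did not pass (SE 0.12, limma adjusted p = 0.191). FOXA3 11727662_at, on chromosome 19, band q13.32, read 3.33, 3.18 and 2.93 in knockdown and 2.89, 2.88 and 2.81 in control. These groups did not overlap, though the lowest knockdown array was close to the controls, and the difference of 0.29 (SE 0.12) had a limma adjusted p of 0.161.

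HNF4A was measured by 5 probe sets, of which 2 rose. Probe set 11730059_s_at read 6.23, 6.15 and 5.87 in knockdown and 5.55, 5.33 and 5.77 in control. The groups did not overlap, but knockdown 3 and control 3 lay close together. The means were 6.09 ± 0.19 in knockdown and 5.55 ± 0.22 in control (SD, n = 3), a 1.45-fold rise and a log2 difference of 0.54 (SE 0.14, 95% interval 0.21 to 0.86, limma adjusted p = 0.0398). Probe set 11738423_a_at read 4.74, 5.03 and 4.74 in knockdown and 4.36, 4.24 and 4.56 in control, a difference of 0.45 (SE 0.13, limma adjusted p = 0.0480). Both calls were near the threshold. For 11730059_s_at the adjusted p was 0.155 without knockdown 1, 0.118 without knockdown 2, 0.115 without control 1 and 0.114 without control 2, with differences of 0.42 to 0.54 in these fits. For 11738423_a_at 5 of the 6 fits with 1 array left out did not pass, with adjusted p of up to 0.157, and the exception was that without control 3 (0.0229).

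The other HNF4A probe sets had overlapping groups. The differences were 0.18 for 11730058_at (95% interval -0.16 to 0.53), 0.11 for 11763615_a_at (-0.13 to 0.35) and 0.00 for 11763597_a_at (-0.25 to 0.25), with limma adjusted p of 0.517, 0.605 and 0.999. HNF4A is transcribed from an upstream and a downstream promoter, the downstream one known as the form of adult liver. The table aligns 4 of the 5 targets from about the same start on chromosome 20, band q13.12, plus strand, at 43029895 to 43029923. The target of 11763615_a_at begins at 42984444, 45.5 kb upstream, and ends at 43036114. In RefSeq the printed upstream and downstream starts are also 45.5 kb apart. That probe set read 4.96, 4.96 and 4.72 in knockdown and 4.73, 4.84 and 4.74 in control, so the arrays of both groups overlapped. The table assigns the same 7 RefSeq transcripts to all 5 probe sets, so the values do not separate the promoters.

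NR5A2, a nuclear receptor of bile acid and cholesterol metabolism, was dim on all 4 probe sets. Means over the 6 arrays were 2.57 to 3.22, differences were -0.02 to 0.28, and limma adjusted p was 0.195 to 0.961. On the brightest, 11727751_a_at, the arrays read 3.38, 3.20 and 3.45 in knockdown and 3.0, 3.10 and 3.20 in control. The groups met at knockdown 2 and control 3. The table places NR5A2 on chromosome 1, band q32.1.

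CEBPA had the highest mean of the members' probe sets and missed the threshold. Probe set 11726294_s_at read 6.52, 6.29 and 6.14 on knockdown arrays and 6.02, 5.76 and 6.08 on control arrays. The groups did not overlap, and the lowest knockdown array and the highest control array were close. The means were 6.32 ± 0.19 in knockdown and 5.95 ± 0.17 in control (SD, n = 3), with a log2 difference of 0.36 (SE 0.13, 95% interval 0.07 to 0.66, limma adjusted p = 0.110). The gene lies on chromosome 19, band q13.11, in the table. A probe set whose name ends in _s_at can hold probes that match further transcripts. That applies to CEBPA 11726294_s_at, to HNF4A 11730059_s_at and to the called SOX9 probe sets, 11758216_s_at and 11720447_s_at.

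The homeobox factors showed no called difference. ONECUT1 11740721_at read 4.18, 4.16 and 4.35 in knockdown and 4.44, 3.87 and 4.41 in control. The control arrays alone spanned more than the knockdown arrays, and the difference was -0.01 (95% interval -0.36 to 0.34, limma adjusted p = 0.985). PROX1 had 3 probe sets with means of 2.52 to 2.96 and differences of 0.03 to 0.20 (limma adjusted p 0.466 to 0.910). On 11748417_a_at, with the largest of these differences, the arrays read 3.25, 3.08 and 2.72 in knockdown and 2.84, 2.63 and 2.96 in control, so the groups overlapped. Over the 15 member probe sets that were not called, the upper ends of the 95% intervals ran from 0.25, for HNF4A 11763597_a_at and PROX1 11759071_at, to 0.66 for CEBPA.

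The poly-A spike-ins, foreign RNAs put in ahead of the labelling step, varied between arrays in the same sense as several members. Their mean was 7.12, 6.79 and 6.93 on knockdown arrays and 6.36, 6.48 and 6.95 on control arrays (two-sided exact permutation p = 0.3, where 0.1 is the smallest that 3 against 3 arrays allow). Control 3 had both the highest spike-in level of the controls and the highest control reading of FOXA1, HNF4A and CEBPA on their brightest probe sets. With the spike-in level as a covariate, FOXA1 11723333_at differed by 0.70 (limma adjusted p = 0.0555), HNF4A 11730059_s_at by 0.36 (0.372), HNF4A 11738423_a_at by 0.39 (0.316) and CEBPA by 0.23 (0.587), and no member was called. That fit called 990 of all probe sets, against 6220 without the covariate. For GAPDH, a 3′ probe set exceeded the 5′ one, a sign of RNA integrity and labelling, by 0.42, 0.37 and 0.24 in knockdown and 0.04, 0.03 and 0.26 in control. For beta-actin this gap was 2.29, 2.34 and 2.19 in knockdown and 2.56, 2.55 and 2.51 in control. The beta-actin gap separated the groups completely (two-sided exact permutation p = 0.1, the smallest possible), and the GAPDH gap did not (p = 0.2). The part of these measures in the member differences was not tested beyond the covariate fit.

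**Figure D3:**
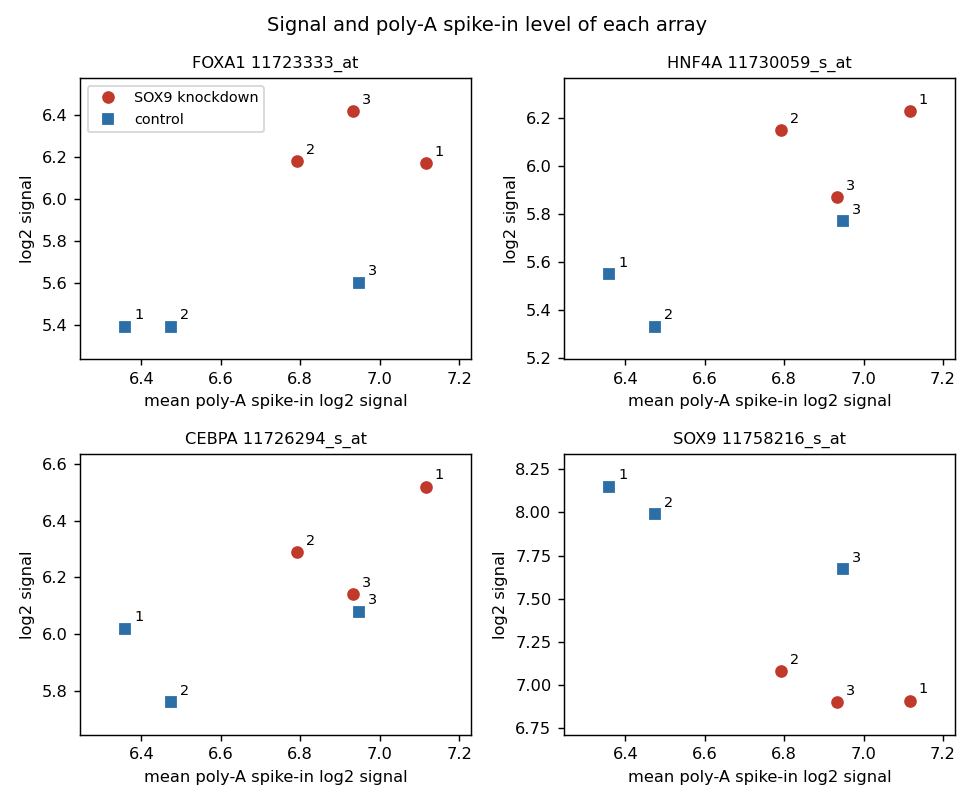
Log2 signal of FOXA1, HNF4A, CEBPA and SOX9 (y axes, brightest probe set of each) against the mean poly-A spike-in log2 signal of the array (x axes), for the 3 SOX9 knockdown arrays (circles) and the 3 control arrays (squares), numbered by replicate. Control 3, at a spike-in level of 6.95, lies among the knockdown arrays on the x axis, reads 5.60 for FOXA1 and stays below every knockdown array for the 3 liver factors and above every one for SOX9.

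The patterns closest to the called members were sought among 26032 bright probe sets of other genes, by the root mean square distance of log2 values centred over the 6 arrays. For FOXA1 they were BIRC5 (distance 0.026), the gene of the mitotic and survival protein survivin, TMEM19 (0.041) and UBE2N (0.048), a ubiquitin-conjugating enzyme. For HNF4A they were FSTL3 (0.024), which binds activin, KRI1 (0.025), a ribosome biogenesis factor known from yeast, and ALG3 (0.025), a mannosyltransferase of N-glycan assembly. Picked for closeness on the same arrays, these genes were bound to have log2 differences like those of the members. The differences were 0.79 to 0.84 for the first trio and 0.53 to 0.57 for the second. These distances are a description of 6 arrays.

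Among 37 other listed liver transcription factors, more were called lower than higher. This list, like those below, was chosen with earlier results of these data known. Its share of calls is therefore a description of the listed genes and not a test. Taking the brightest probe set of each of 18574 genes, 12 of 37 other liver factors were called (32.4%), 3 higher and 9 lower. Over all genes the shares were 8.41% higher and 8.35% lower. Of the 30 factors with a mean of at least 5, 11 were called (36.7%), against 24.9% of all genes at that level. The median difference of the 37 was -0.09, against 0.03 over all genes. The count of called factors among the 37 was 7 without knockdown 1, 8 without knockdown 2, 6 without knockdown 3 and 7 without control 1. On the same footing 2 of the 8 lineage factors were called, FOXA1 and HNF4A, both higher, with a median of 0.28.

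The 4 called factors with the largest change were NFIL3, CEBPG, DBP and CEBPB, and all 4 fell. NFIL3, a bZIP repressor, read 7.33, 7.21 and 7.34 in knockdown and 8.94, 8.97 and 8.67 in control, and changed by -1.57 (limma adjusted p = 4.86e-05 over all genes). CEBPG, a C/EBP partner that lacks a strong activation domain, changed by -1.53, DBP, a circadian activator of liver genes, by -1.08, and CEBPB, the C/EBP of the acute phase and of stress, by -0.97 (limma adjusted p = 4.86e-05, 1.43e-04 and 7.42e-04). CEBPB read 8.65, 8.66 and 8.72 in knockdown and 9.61, 9.88 and 9.45 in control, a fall on every array, whereas CEBPA was higher on every knockdown array without passing. All other probe sets of CEBPG and DBP had differences below 0 as well. On the brightest probe set their relatives did not all share this: CEBPD differed by -0.09 (limma adjusted p = 0.626) and HLF by -0.13 (0.479). ATF5, another bZIP factor, rose by 0.87 (limma adjusted p = 0.00654). All probe sets of CEBPD and HLF had differences below 0. The dim HLF probe set 11724271_a_at, with a mean of 2.99, differed by -0.73 and passed over all probe sets (limma adjusted p = 0.0227).

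Close relatives of the members were looked at after their values were seen. ONECUT2 read 8.25, 8.32 and 8.36 in knockdown and 8.56, 8.52 and 8.53 in control (difference -0.23, limma adjusted p = 0.118), and ONECUT3 differed by 0.00. HNF4G, the paralogue of HNF4A, read 5.67, 5.85 and 6.10 in knockdown and 5.94, 6.30 and 5.93 in control (-0.19, limma adjusted p = 0.452). On the brightest probe set none of these 3 relatives passed the test. The other ONECUT2 probe set, 11728922_at, read 7.60, 7.62 and 7.49 in knockdown and 8.10, 7.92 and 8.10 in control, with a difference of -0.47 that passed over all probe sets (limma adjusted p = 0.0166).

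Of 16 cofactors of nuclear receptors 4 were called, 2 higher and 2 lower, which is 25% against 16.8% of all genes. Of the 14 with a mean of at least 5, 4 were called (28.6%), against 24.9% of all genes at that level. PPARGC1A, a coactivator that works with HNF4A in gluconeogenesis, read 7.81, 7.79 and 7.68 in knockdown and 8.44, 8.72 and 8.39 in control, and fell by 0.76 (limma adjusted p = 0.00180). The coactivator NCOA1 fell by 0.35, with differences of -0.48 to -0.01 over its 6 probe sets, while the arginine methyltransferase PRMT1 rose by 0.46 and the corepressor deacetylase HDAC3 by 0.34. Without knockdown 1 the list held 1 call, and without knockdown 2, knockdown 3 or control 1 it held 2.

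**Figure D4:**
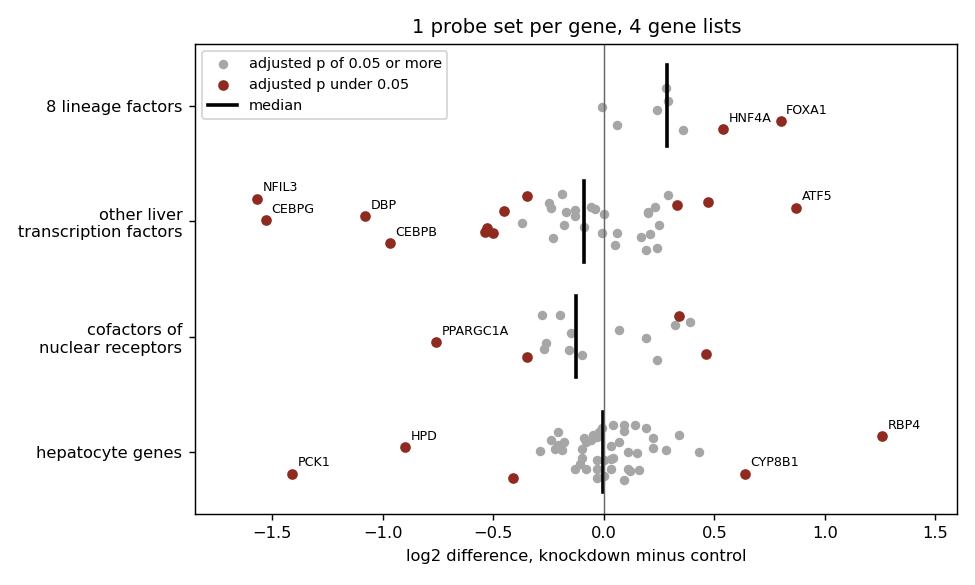
Log2 difference, knockdown minus control, of the brightest probe set of each gene in 4 lists (rows); dark red points have a limma adjusted p under 0.05 over all genes, black bars are list medians, and vertical scatter has no meaning. The 8 lineage factors have a median of 0.28 with FOXA1 and HNF4A called, and the other liver transcription factors have 9 of their 12 calls left of 0.

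Genes that these factors are known to bind or drive in hepatocytes changed in both directions, and most were dim. Of 50 such genes 5 were called, 2 higher and 3 lower, which is 10% against 16.8% of all genes, and the median difference was 0.00. Just 12 of the 50 reached a mean of 5, and changes could be missed in the rest. Of these 12 genes 4 were called (33.3%), 1 higher and 3 lower, against 24.9% of all genes at that level. RBP4, the carrier of retinol in plasma, rose by 1.26 (limma adjusted p = 6.89e-04), with 6.28, 6.52 and 6.04 in knockdown and 5.18, 4.74 and 5.14 in control. The bile acid enzyme CYP8B1 rose by 0.64 at a low level, 3.87 in knockdown and 3.22 in control. PCK1, the gluconeogenic enzyme of the cytosol, changed by -1.41 and the tyrosine breakdown enzyme HPD by -0.90. HPD read 7.61, 7.42 and 7.22 in knockdown and 8.12, 8.32 and 8.51 in control.

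Defining hepatocyte markers read low in both groups, which goes against the label of the cells. The mean over 15 hepatocyte markers was 3.96 ± 0.11 in knockdown and 3.95 ± 0.14 in control (SD, n = 3), and 3 of the 15 had a mean of at least 5. ALB, the albumin gene, read 3.43, 3.59 and 3.08 in knockdown and 2.82, 2.96 and 3.65 in control. AFP, the fetal counterpart of albumin, averaged 2.61 in knockdown and 2.70 in control, APOA1 averaged 4.60 in knockdown and 4.81 in control, and TTR, the transthyretin gene, 5.62 in knockdown and 5.43 in control. None of these 4 differed at the threshold, and on their brightest probe sets ALB, AFP, APOA1 and TTR overlapped between groups. No probe set of ALB, AFP or APOA1 reached a mean of 5, the highest means being 3.26, 2.66 and 4.71. TTR had 1 probe set, with a mean of 5.53. Probe sets are not on a common scale, and which line the cells are was not tested.

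Among marker lists of other cell types, the biliary list did not overlap between groups. Its 9 genes averaged 6.65, 6.63 and 6.62 on knockdown arrays and 6.57, 6.46 and 6.60 on control arrays, a difference of 0.09 (exact permutation p = 0.1, the smallest that 3 against 3 arrays allow). The kidney list of 13 genes had 4.49 in knockdown and 4.56 in control, and the leukocyte list of 10 genes had 4.30 in knockdown and 4.19 in control. The endothelial list read 4.16 in knockdown and 4.19 in control, the fibroblast and stellate cell list 4.16 in knockdown and 4.24 in control, and the intestine list 3.97 in knockdown and 3.94 in control, with 8 genes each. The exact permutation p of the other 6 marker lists, the hepatocyte list included, was 0.2 to 1.0, and with 7 lists of 3 against 3 arrays no adjusted p could pass. The part of the biliary list in the member differences was not tested. By gene, the brightest probe set was called for 1 of 9 biliary, 3 of 13 kidney, 1 of 10 leukocyte and 2 of 8 fibroblast genes, against 16.8% of all genes. SOX4 fell by 0.44 among the biliary genes, and of its 7 probe sets 2 had differences above 0. SLC12A1, a kidney transporter gene, fell by 2.05, and 3 of its 4 probe sets were below 0. The other kidney calls rested on 1 dim probe set each: LHX1 rose by 0.79 with its other 2 probe sets at -0.26 and -0.03, and SLC12A3 fell by 0.39 with its other at -0.02. ACTA2 fell by 1.18 on a probe set with a mean of 4.67, with its other 2 at 0.16 and 0.04, while DCN rose by 0.59 and was above 0 on all 4 of its probe sets. CD68 rose by 0.62 on its single probe set. The hepatocyte, endothelial and intestine lists had 0 called genes by limma.

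**Figure D5:**
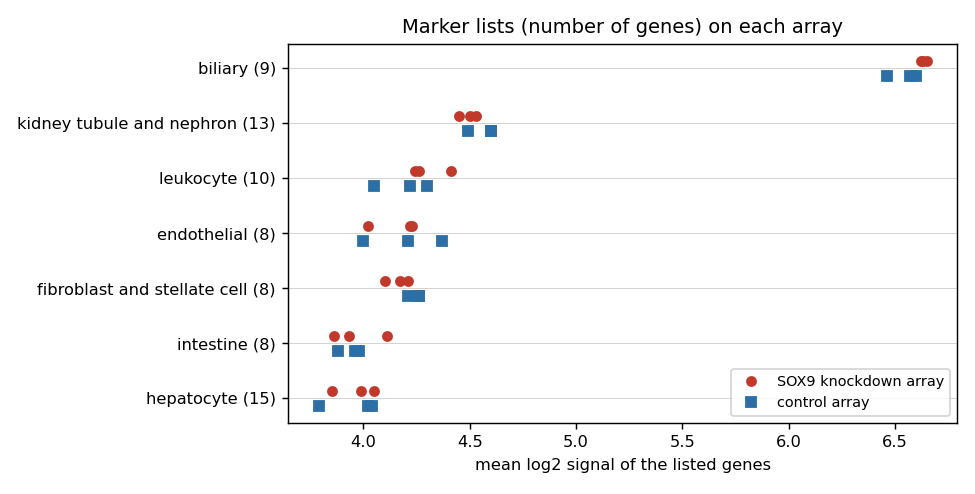
Mean log2 signal of each marker list (rows, number of genes in brackets) on the 3 SOX9 knockdown arrays (circles) and the 3 control arrays (squares). The hepatocyte list lies between 3.79 and 4.05 on every array, and the biliary list between 6.46 and 6.65.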

How the data were processed

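RNA of 6 samples was measured on expression arrays, 3 of SOX9 knockdown and 3 of control cells, grouped by title. The deposited table held log2 values made by the authors with RMA and the affy package, per the submitters' processing notes; their versions, the array design and the alignment build were not found in the labels or tables. RMA removes background, equalises arrays and summarises probes. The deposited series matrix held the same values.

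The 79 control probe sets were left out and no signal filter was set. Tests used limma 3.58.1 under R 4.3.3 (lmFit, eBayes, two-sided) over 49293 probe sets, or over 18574 genes by the brightest probe set, with Benjamini-Hochberg adjustment and a threshold of 0.05. Genes were named through the Entrez number and RefSeq (46035 probe sets) or the table's symbol (205). Plots used Python 3.11.15 and matplotlib 3.10.9. The fit was tested on simulated data. Members, lists and tests were chosen with earlier results of these data known. Named genes were all members, SOX9, ALB, AFP, APOA1 and TTR, up to 4 called genes of each list with the largest change (or, below 2 calls, the 2 genes of smallest p, printed only where called), and 3 nearest patterns for each called bright member. Alternatives were a signal filter, a second normalization, a trended robust variance prior, weights per array, replicate blocks, a spike-in covariate and leaving out each array. Some genes of the lists are counted but not reported here by name.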

Additional observations from a re-analysis of the deposited data

How the results depend on the processing

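Among the 15 alternatives, the fit on the series matrix used the same values as the main fit, so its outcome was fixed. FOXA1 11723333_at kept its direction in all 15 alternatives and was called in all but the spike-in covariate (0.70, limma adjusted p = 0.0555). HNF4A 11730059_s_at kept its direction in these but lost its call with the covariate (0.36) and the replicate block (0.54, limma adjusted p = 0.0916), and in 4 of the 6 fits with 1 array left out, which ranged from 0.42 to 0.65. CEBPA was called in none. Called member probe sets numbered 3 in the main comparison, 1 with the replicate block, 0 with the covariate and 1 to 3 with 1 array left out. All called probe sets numbered 6220, against 3343 with the block, 990 with the covariate, 3114 with 1 probe set per gene and 2508 to 8757 with 1 array left out. The cause of these shifts was not tested, except that with 1 probe set per gene fewer features are tested. At a mean log2 of at least 4 or 6 in place of 5, 8 and 1 member probe sets remained in place of 3. Called genes numbered 6 to 11 for other liver factors and 1 to 5 for cofactors when 1 array was left out, and 2 cofactors with the block. Same-numbered arrays showed no pairing. Their deviations from group means correlated at -0.24, -0.396 and -0.415, and no array correlated best with its own number. The highest correlations were 0.344 (knockdown 1 with control 3), 0.349 (knockdown 2 with control 1) and 0.528 (knockdown 3 with control 2). Deviations of 3 arrays from their own mean cancel, so these values constrain each other and cannot settle whether arrays shared a batch. No value reversed while called. The signal over background of dim probe sets limits the members under 5.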
